A study of Homo sapiens with 14 samples.

Results

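The genes described are 35 KRAB zinc finger genes of chromosome 19p12-p13 that lie between ZNF101 and ZNF254, both included. They were chosen by symbol from a list of primate-expanded zinc finger genes of this region, out of 59250 gene symbols counted by RNA-seq. All 35 symbols were found in the table. Of these, 23 reached at least 1 CPM (1 count per 1000000 counts of the library) in any library and 12 did not. The libraries came from NUGC4, a human gastric cancer cell line, and HepG2, a human liver cancer cell line, both grown in culture. The NUGC4 groups were wild-type parental cells (4 libraries), ARID1A knockout cells made with CRISPR-Cas9 and grown from single-cell clones (2 libraries), and an ARID1A CRISPRi pair. ARID1A encodes a DNA-binding subunit of the SWI/SNF chromatin remodelling complex, and CRISPRi represses a gene with a catalytically dead Cas9 that carries a repressor domain. The CRISPRi pair was a vector control, labelled as 2 libraries of which 1 was matched to a column of the table and the other is not analysed here, and cells with sgRNA1 against ARID1A (2 libraries). The HepG2 groups were an empty lentiviral vector (2 libraries) and overexpressed CTNNB1 (2 libraries), a FLAG-tagged and GFP-tagged beta-catenin without exon 3, delivered by lentivirus under the EF1α promoter. Exon 3 holds the signal for beta-catenin degradation. Nothing in the labels ties the libraries of a group to independent cultures, and a p-value here therefore measures only how these libraries scatter, which may be technical.

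KRAB zinc finger proteins bind DNA through arrays of zinc fingers and recruit the corepressor TRIM28 through their KRAB domain. TRIM28 in turn brings the histone methyltransferase SETDB1, heterochromatin proteins and histone deacetylases. Many of these proteins bind and silence transposable elements, and the genes of this cluster arose by repeated duplication in primates. ZNF91, for example, represses SVA retrotransposons, and ZNF93 represses a group of LINE elements. The zinc finger genes of chromosome 19 are themselves coated with heterochromatin marks in many cell types.

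The promoters of the cluster shared short sequences, and 7 of them are printed because the results turn on these genes. ZNF85 and ZNF430 are neighbours on either side of a change in expression. ZNF714, ZNF431, ZNF493 and ZNF91 changed in at least 1 comparison or are the most abundant members, and ZNF43 was the most abundant member with no count in NUGC4. Each line gives the 250 bases before the RefSeq gene start (GRCh38.p14), read 5′ to 3′ on the strand of the gene, with the 8-base element TCCAATCA in capitals. The windows are chr19:20923001-20923250 (plus strand) for ZNF85, chr19:21020407-21020656 (plus) for ZNF430, chr19:21081953-21082202 (plus) for ZNF714 and chr19:21141790-21142039 (plus) for ZNF431. Those of the other genes are chr19:21396883-21397132 (plus) for ZNF493, chr19:23395472-23395721 (minus) for ZNF91 and chr19:21836183-21836432 (minus) for ZNF43, whose window lies within the annotated span of the gene.
ZNF85: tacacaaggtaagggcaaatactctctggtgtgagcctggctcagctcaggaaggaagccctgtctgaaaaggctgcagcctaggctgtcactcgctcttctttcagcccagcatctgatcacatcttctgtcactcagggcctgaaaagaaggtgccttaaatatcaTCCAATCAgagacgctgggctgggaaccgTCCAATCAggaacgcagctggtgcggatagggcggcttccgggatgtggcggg
ZNF430: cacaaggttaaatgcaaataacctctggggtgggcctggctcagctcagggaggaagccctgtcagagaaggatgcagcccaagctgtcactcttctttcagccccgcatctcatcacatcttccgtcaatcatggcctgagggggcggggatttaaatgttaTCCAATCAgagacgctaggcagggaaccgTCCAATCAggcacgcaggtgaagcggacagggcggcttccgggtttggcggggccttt
ZNF714: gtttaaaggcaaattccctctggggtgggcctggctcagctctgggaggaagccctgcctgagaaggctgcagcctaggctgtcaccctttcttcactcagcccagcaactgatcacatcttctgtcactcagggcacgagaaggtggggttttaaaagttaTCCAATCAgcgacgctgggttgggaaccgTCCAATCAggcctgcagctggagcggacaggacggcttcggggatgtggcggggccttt
ZNF431: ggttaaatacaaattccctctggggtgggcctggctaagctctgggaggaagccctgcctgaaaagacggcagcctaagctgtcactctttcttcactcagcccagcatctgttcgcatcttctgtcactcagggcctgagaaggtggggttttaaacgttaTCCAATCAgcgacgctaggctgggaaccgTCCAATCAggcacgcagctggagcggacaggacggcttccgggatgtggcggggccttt
ZNF493: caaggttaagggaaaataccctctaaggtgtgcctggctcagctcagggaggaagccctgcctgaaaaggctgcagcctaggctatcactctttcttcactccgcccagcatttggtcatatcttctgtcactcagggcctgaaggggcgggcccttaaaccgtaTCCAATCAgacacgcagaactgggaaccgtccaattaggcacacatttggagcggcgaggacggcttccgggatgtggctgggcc
ZNF91: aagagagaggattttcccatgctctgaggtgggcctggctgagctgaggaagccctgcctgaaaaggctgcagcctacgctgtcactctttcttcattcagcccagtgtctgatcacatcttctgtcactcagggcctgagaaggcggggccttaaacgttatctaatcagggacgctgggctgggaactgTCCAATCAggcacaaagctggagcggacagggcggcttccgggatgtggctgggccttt
ZNF43: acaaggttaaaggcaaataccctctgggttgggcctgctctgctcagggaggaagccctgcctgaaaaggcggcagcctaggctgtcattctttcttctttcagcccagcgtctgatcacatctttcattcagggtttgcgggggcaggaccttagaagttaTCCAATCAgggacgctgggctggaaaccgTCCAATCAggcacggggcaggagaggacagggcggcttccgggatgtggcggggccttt

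A RefSeq promoter window of 300 bases, from 250 before to 50 after the start, was found for 27 of the 35 members. All 27 windows held TCCAATCA, which contains CCAAT, the core of the sequence bound by the factor NF-Y. Both strands were searched (reverse complement TGATTGGA), and 440 of 27305 windows of all genes held it, or 1.61%. Among zinc finger genes with a ZNF symbol elsewhere on chromosome 19 it was found in 25 of 183 windows (13.7%), and among ZNF genes of other chromosomes in 17 of 193 (8.81%). The element was picked from the member windows themselves, as the word of 8 bases found in all of them that is rarest elsewhere, so its share is a description with no test. The 10-base extension TCCAATCAGG was in 25 of 27 member windows (92.6%) and in 0.388% of all windows. CTGTCACTCA was found in 22 member windows and in 0.385% of all windows (reverse complement TGAGTGACAG), and CTTTGTCTCT (AGAGACAAAG) in 18 member windows and in 0.308% of all. The longer words were also picked from the member windows, as the most widely shared words of 10 bases: the first contains the element, and the others share no 5 bases in a row with those before them. The searches for TCCAATCA, TCCAATCAGG and CCAAT overlap one another by construction.

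The 41 matches of TCCAATCA all lay in the direction of transcription, with their first base 88 to 24 bases before the annotated start. As the element was picked on the strand of each gene, a forward copy in every window was set by that choice. A single copy was present in 13 genes and a pair of copies in 14, the second 28 or 29 bases after the first. Members at 1 CPM or more in HepG2 only had 1 copy in 2 windows and a pair in 6, those expressed in both lines 1 copy in 7 and a pair in 4, and those under 1 CPM in both lines 1 copy in 4 and a pair in 4. As the element was chosen for being in every window, its presence says nothing about which members were on. The GC content of the window overlapped between these classes, at 50.7% to 57.3% (median 55.5%) for members on in HepG2 only, 52% to 63.7% (56%) for those on in both lines and 55% to 59.3% (56.3%) for those off in both. Their median numbers of CpG dinucleotides in the window were 9, 10 and 10, against 14 over all 27305 windows. Any pair of member windows matched at a median of 76% of bases (351 pairs, 44.3% to 91%), against 46.3% for pairs of other chromosome 19 ZNF genes. The likeness was computed from the edit distance between the windows.

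**Figure D1:**
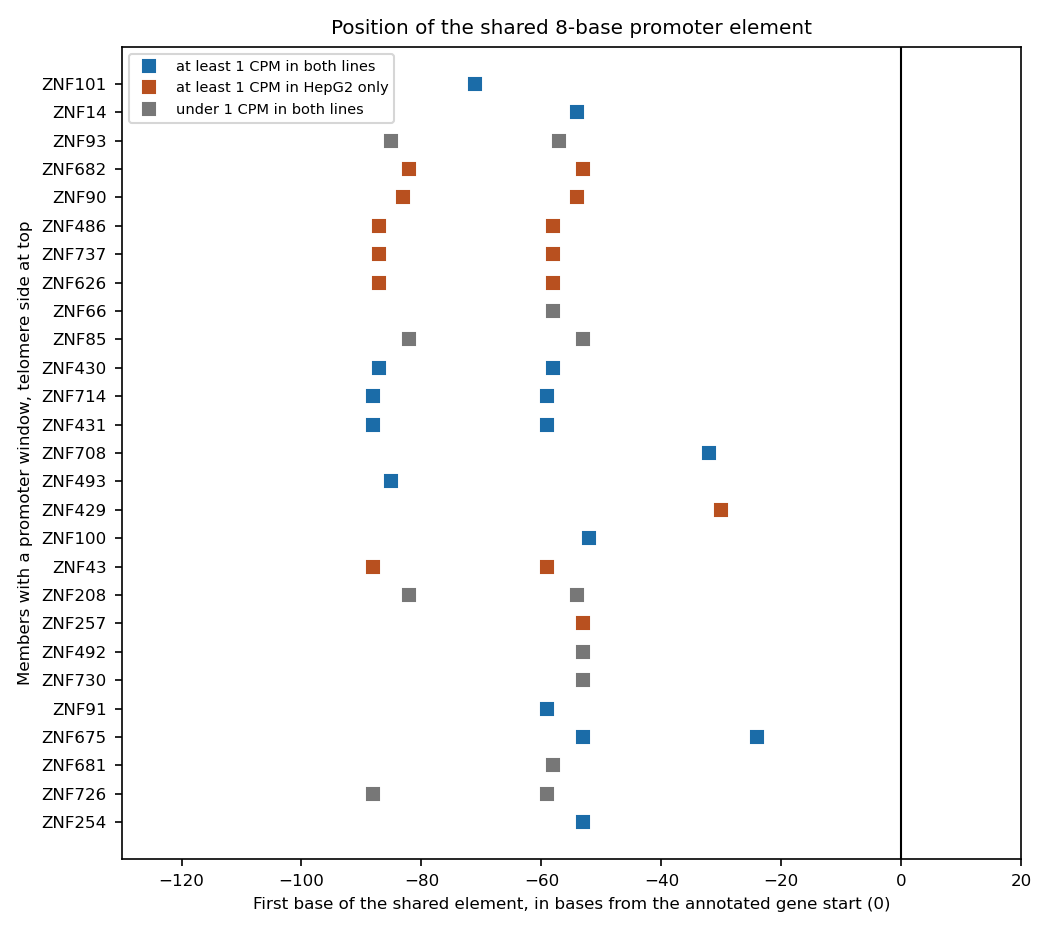
Position of the first base of TCCAATCA, in bases from the annotated gene start, for the 27 members with a promoter window, in chromosomal order and coloured by the lines in which the gene reached 1 CPM. All 41 matches lie between 88 and 24 bases before the start, and the colours mix over the positions.

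Several facts of the whole series bear on the values. Total counts were 9167761 to 17668394 in the 9 NUGC4 libraries and 13138681 to 23914120 in the 4 HepG2 libraries. The library labelled knockout replicate 2 held ARID1A at 141 CPM, beside 117 to 137 CPM in wild type, 34.3 CPM in knockout replicate 1 and 140 CPM with the vector. It also held ZNF10 at 19.9 CPM, as the vector library did (23.4 CPM) and wild type did not (at most 0.208 CPM). Its counts differed from those of the vector library by a chi-square of 2.57 per degree of freedom. The 2 sgRNA1 libraries differed by 3.75, and the 2 libraries labelled knockout by 278.1. The library labelled knockout replicate 2 thus goes against its label, and the knockout is described from replicate 1 alone. ZNF10 and ZIM3 are the sources of KRAB domains used in CRISPRi constructs, and ZIM3 stood at 26.1 and 28.2 CPM in the sgRNA1 libraries and 0 in the vector library, so these 2 groups differ in more than the guide. The part of this difference in the results was not tested. Ribosomal RNA genes took 8.04% to 11.7% of counts in wild type, 6.30% in knockout replicate 1 and at most 0.176% in the vector and sgRNA1 libraries. NUGC4 expressed 11 of 12 gastric epithelial markers (TFF2 was under 1 CPM) and HepG2 all 12 hepatocyte markers. HepG2 also expressed 7 of the 12 gastric markers, and NUGC4 5 of the 12 hepatocyte markers. Of 7 leukocyte markers 2, CD68 and LYZ, reached 1 CPM in NUGC4 (summed 1284 to 2928 CPM) and 4 in HepG2 (1372 to 2437 CPM). PTPRC, CD3E and CD2 were under 1 CPM in both lines. Of 7 fibroblast markers 2 and 1 reached it (17.6 to 25.6 and 10.97 to 15.7 CPM), and of 5 endothelial markers 1 and 2 (0.311 to 1.81 and 2.25 to 3.04 CPM). Their part in the results was not tested.

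The largest contrast of the cluster was between the cell lines. At 1 CPM, 12 members were on in both lines, 10 only in HepG2 and 1 only in NUGC4, so that 22 members were on in HepG2 and 13 in NUGC4. The share on in HepG2 only was 43.5% of the 23 members, against 7.85% of the 19472 genes at 1 CPM in any library. It was 19.9% among the other ZNF genes of chromosome 19 (35 of 176), 3.81% among ZNF genes of other chromosomes (8 of 210) and 8.33% among protein-coding genes within 2 Mb on the short-arm side of the cluster (5 of 60). For NUGC4 only, the share was 4.35% of members against 25.3% of all genes. Each of the 9 NUGC4 libraries showed the same number of members on, 13, and the HepG2 libraries 20 to 22. The 2 lines differ in many ways beyond tissue, and no test was made of the difference between them. Bulk samples cannot tell fewer expressing cells apart from less RNA per cell, here and in every comparison below.

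Off in NUGC4 mostly meant no reads at all. Of the 10 members on in HepG2 only, 8 had no count in any of the 9 NUGC4 libraries, or 34.8% of the 23 members against 1.96% of all expressed genes. ZNF43 had 117 and 151 counts in the HepG2 vector libraries and 177 and 188 in the CTNNB1 libraries. With 3 counts over the 9 NUGC4 libraries as the limit that a count of 0 allows, its level in HepG2 was at least 339.5-fold higher. The same bound was at least 228-fold higher for ZNF626, 141-fold for ZNF486, 116-fold for ZNF682, 77.8-fold for ZNF737, 58.5-fold for ZNF676, 55.8-fold for ZNF90 and 54.2-fold for ZNF257. These bounds cover counting error only and rest on pooled counts of each line. The remaining 2 genes had stray reads in NUGC4. ZNF429 had 5 counts over the NUGC4 libraries against 768 in HepG2, a ratio of 247, and ZNF253 had 1 count against 298.

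ZNF506 showed the opposite pattern. It had 58 to 95 counts in every NUGC4 library and none in the 4 HepG2 libraries, so that its level in NUGC4 was at least 149.8-fold higher. Just inside the 1 CPM limit, by their highest library, were ZNF257 at 0.837 to 1.57 CPM and ZNF738 at 0.472 to 1.25 CPM in HepG2. ZNF85 and ZNF66 fell just outside, with at most 0.894 and 0.836 CPM in HepG2 and no count in NUGC4. Of the 12 members under 1 CPM everywhere, ZNF729, ZNF98, ZNF492 and ZNF728 had no count in any of the 13 libraries. Reads of ZNF98 and ZNF492 are hard to place, since 23.7% and 18.4% of the 100-base stretches of their transcripts also occur in transcripts of other genes; for ZNF90 the share was 6.69% and for every other member at most 3.91%. How the deposited counts treat such reads is not given in the sources used here. ZNF93, known for its repression of LINE elements, had 4 counts over the 4 HepG2 libraries and none in NUGC4.

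The members that were on and off in NUGC4 lay in blocks along the chromosome. The cluster spans chr19:19668153-24129968 on GRCh38.p14, or 4.46 Mb. From the telomere side, ZNF101, ZNF14 and ZNF506 were on in NUGC4. The next 9 genes, ZNF253 to ZNF85 (chr19:19865830-20950697, 1.08 Mb), had 1 count in all NUGC4 libraries together, whereas HepG2 had 1563 counts there and 6 genes on. The following 6 genes, ZNF430, ZNF714, ZNF431, ZNF708, ZNF738 and ZNF493 (chr19:21020657-21427577, 0.407 Mb), were all on in both lines, with 13062 counts in NUGC4 and 1424 in HepG2. A gap of 69.96 kb separates ZNF85, without a count in NUGC4, from ZNF430, at 4.80 to 10.9 CPM over the 9 NUGC4 libraries; both promoters printed above hold a pair of TCCAATCA copies.

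Beyond ZNF493 came ZNF429, on in HepG2 only, and ZNF100, on in both lines. A second run of 10 genes, ZNF43 to ZNF730 (chr19:21804946-23147221, 1.34 Mb), had no count in NUGC4 and 858 counts in HepG2, where ZNF43, ZNF257 and ZNF676 were on and the other 7 were under 1 CPM. On the centromere side ZNF91, ZNF675 and ZNF254 were on in both lines and ZNF681 and ZNF726 in neither. These runs were delimited after the values were seen and are given as a description. Neighbouring genes share sequence and chromatin and are not independent of one another.

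**Figure D2:**
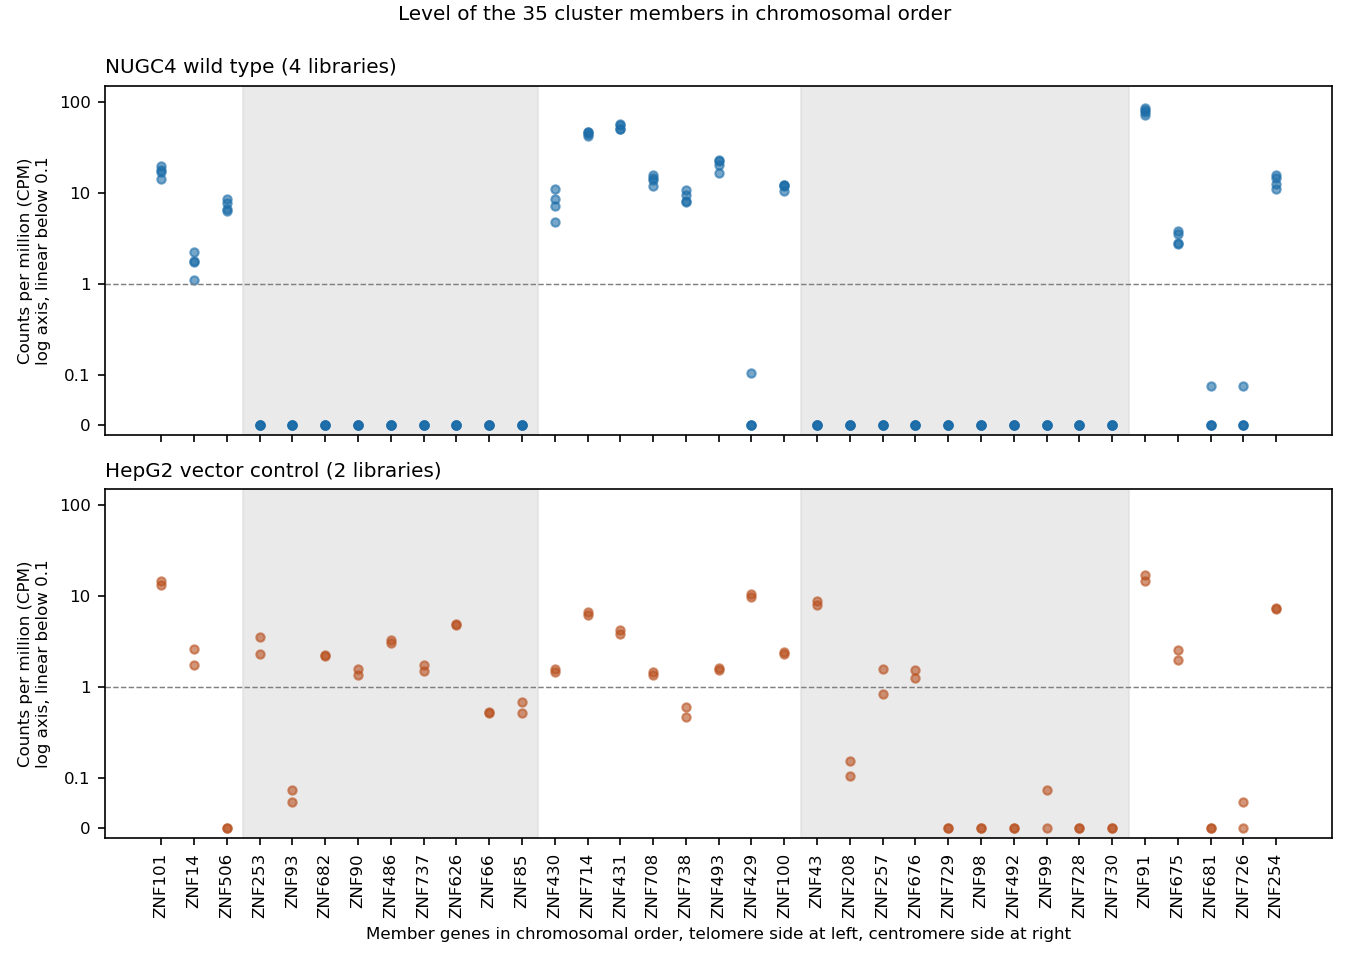
Level of the 35 members in chromosomal order in the 4 wild-type NUGC4 libraries (top) and the 2 HepG2 vector libraries (bottom), in CPM on an axis that is logarithmic above 0.1 and linear below; the dashed line marks 1 CPM and the grey bands the 9 and 10 neighbouring genes that had 1 and 0 counts in NUGC4. In HepG2, 6 genes of the first band and 3 of the second reach 1 CPM.

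The order of the members also differed between the lines. Per kilobase of annotated exon (GENCODE v29), ZNF91 was the most abundant member in wild-type NUGC4 at 7.63 ± 0.567 CPM per kb (SD, n = 4), followed by ZNF714 at 5.59 ± 0.284, ZNF431 at 3.79 ± 0.245, ZNF708 at 3.24 ± 0.354, ZNF101 at 2.62 ± 0.345 and ZNF738 at 2.34 ± 0.343. The intervals of ZNF91, ZNF714 and ZNF431 do not meet at 1 SD, but those of ZNF431 and ZNF708, of ZNF708 and ZNF101 and of ZNF101 and ZNF738 do. In the HepG2 vector libraries ZNF101 stood first at 2.14 ± 0.158 CPM per kb (SD, n = 2), with ZNF429 at 2.03 ± 0.104, within 1 SD of it, then ZNF91 at 1.52 ± 0.152, ZNF43 at 0.972 ± 0.0809 and ZNF254 at 0.953 ± 0.0171, the last 2 also within 1 SD of each other. ZNF714 and ZNF431 stood at 0.797 and 0.289 CPM per kb in these HepG2 libraries. ZNF429 and ZNF43, both high in this order in HepG2, were among the members that NUGC4 lacked or nearly lacked.

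Loss of ARID1A was asked about first in the knockout. The values below are CPM on library sizes scaled by TMM, a factor computed from most genes. Fold changes are log2 values from edgeR's quasi-likelihood test. Their standard errors were back-calculated, as the absolute log2 fold change over the square root of the test's F statistic. A gene was called at a Benjamini-Hochberg adjusted p under 0.05 over all 18913 genes tested in NUGC4. In knockout replicate 1, 13 members were tested, 2 were called lower and none higher. Over all genes 18.7% were called lower and 19.5% higher, so the 15.4% of members called lower lies near that background. At an unadjusted p under 0.05, 4 members were lower and none higher, beside 4507 genes lower and 4391 higher of the 18913, and DESeq2 and limma-voom also called none higher. The median log2 fold change of the members was -0.21, against -0.07 over all genes, and 10 of 13 were negative.

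The 2 genes that fell were ZNF431 and ZNF714, which are neighbours in the expressed run. ZNF431 stood at 49.2, 53.1, 48.3 and 52.8 TMM-scaled CPM in wild type and at 30.8 in knockout replicate 1, below all 4 wild-type libraries. Its log2 fold change was -0.72 ± 0.14 (SE, adjusted p = 4.2e-04). ZNF714 stood at 45.03, 39.2, 42.6 and 44.2 TMM-scaled CPM in wild type and at 27.7 in the knockout, also below every wild-type library, a log2 fold change of -0.62 ± 0.14 (adjusted p = 0.00183). Both genes remained called in each of the 15 alternatives that used a threshold on the adjusted p alone. Some of these alternatives used the library labelled knockout replicate 2, which held ARID1A at 141 CPM, so they are no check on ARID1A loss. Put in place of replicate 1, that library gave log2 fold changes of -0.95 for ZNF431 and -0.67 for ZNF714. The vector library, with ARID1A at 140 CPM, also had both genes below wild type (-0.86 for ZNF431 and -0.42 for ZNF714). With both libraries labelled knockout in the group, 2 members were called lower.

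The other 11 members tested did not pass the threshold. ZNF91, the most abundant, stood at 83.0, 73.3, 68.9 and 76.5 TMM-scaled CPM in wild type and 64.2 in knockout replicate 1. That is a log2 fold change of -0.23 ± 0.13 (adjusted p = 0.173), which did not pass, and 34.9 in the library labelled knockout replicate 2. ZNF101, at 17.1, 13.3, 18.98 and 16.0 TMM-scaled CPM in wild type, had 19.4 in knockout replicate 1 (log2 fold change 0.25 ± 0.18, adjusted p = 0.299). ZNF14, at the low level of 1.05 to 2.18 TMM-scaled CPM in wild type, had the highest value of any member, 0.73 ± 0.40 (adjusted p = 0.162). Counted by libraries, 6 members lay below and 2 above all 4 wild-type libraries, against 38.1% and 34.2% of all genes. The knockout group was a single library of 1 clone, and its spread in the test came from the other groups.

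All 6 genes of the expressed run had negative log2 fold changes in the knockout, between -0.72 and -0.18, with a median of -0.52. The 7 members tested outside the run lay between -0.23 and 0.73, and none of them was called (adjusted p of 0.162 and above). As the run was delimited with values in view, this is a description. Inside it, ZNF708 at -0.51 ± 0.23 (adjusted p = 0.0913) and ZNF738 at -0.52 ± 0.24 (adjusted p = 0.0957) missed the threshold.

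With CRISPRi, 13 members were again tested, 2 were called lower and none higher, against 4.11% and 4.62% of all genes. The median log2 fold change was -0.35, beside 0.00 over all genes, and 12 of 13 members were negative. Of the other tested ZNF genes, 100 of 145 on chromosome 19 and 145 of 203 on other chromosomes were also negative. The median of those on other chromosomes was -0.15. At an unadjusted p under 0.05, 5 members were lower and none higher, beside 1969 genes lower and 2036 higher of the 18913, and neither DESeq2 nor limma-voom called any higher. ARID1A itself fell by 1.24 on the log2 scale in this comparison and fell by 1.74 in the knockout. The 145 tested ZNF genes elsewhere on chromosome 19 had 6 calls lower (4.14%) and none higher, with a median of -0.17.

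ZNF431 was called here as well. It stood at 27.99 TMM-scaled CPM in the vector library and at 20.1 and 18.9 in the sgRNA1 libraries, a log2 fold change of -0.52 ± 0.15 (SE, adjusted p = 0.031). ZNF493, also of the expressed run, stood at 11.2 TMM-scaled CPM with vector and 6.57 and 6.53 with sgRNA1, a log2 fold change of -0.77 ± 0.22 (adjusted p = 0.0315). Both sgRNA1 libraries lay below the vector library for these genes. Neither gene was called without wild-type replicate 2 (adjusted p = 0.0552 for ZNF431 and 0.0538 for ZNF493), without sgRNA1 replicate 1 (0.109 and 0.139) or without sgRNA1 replicate 2 (0.191 and 0.149). The wild-type libraries entered only through the shared spread. The DESeq2 Wald test kept ZNF431 and lost ZNF493 (adjusted p = 0.0544).

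ZNF708 had the most negative value, -0.79 ± 0.24 (adjusted p = 0.0506), from 11.3 TMM-scaled CPM in the vector library to 7.75 and 5.37 in the sgRNA1 libraries. ZNF714, called in the knockout, went from 31.9 to 27.1 and 26.7 TMM-scaled CPM under CRISPRi, a log2 fold change of -0.24 ± 0.15 that did not pass (adjusted p = 0.366). ZNF91 went from 37.3 to 30.1 and 27.8 TMM-scaled CPM (-0.36 ± 0.15, adjusted p = 0.144). ZNF101, at 14.3 with vector and 16.0 and 16.8 with sgRNA1, was the only tested member with a positive value (0.19 ± 0.20, adjusted p = 0.65). In all, 10 members were lower in both sgRNA1 libraries than in the vector library and 1 was higher, against 40.5% and 39.2% of all genes. The vector group was 1 library, so the test took its spread from the other groups.

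The 6 genes of the expressed run all had negative values under CRISPRi too, between -0.79 and -0.17, with a median of -0.57. The 7 members outside it lay between -0.38 and 0.19, with a median of -0.35 and 6 of them negative, and none was called. The knockout and CRISPRi effects share no library. A direct test of their difference called none of the 13 members, at adjusted or unadjusted p, against 9.02% of all genes; this test was run in edgeR alone. For ZNF714 the difference was -0.38 ± 0.20 (adjusted p = 0.279) and for ZNF493 0.43 ± 0.29 (adjusted p = 0.399). A p that misses the threshold does not show that the effects are alike.

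**Figure D3:**
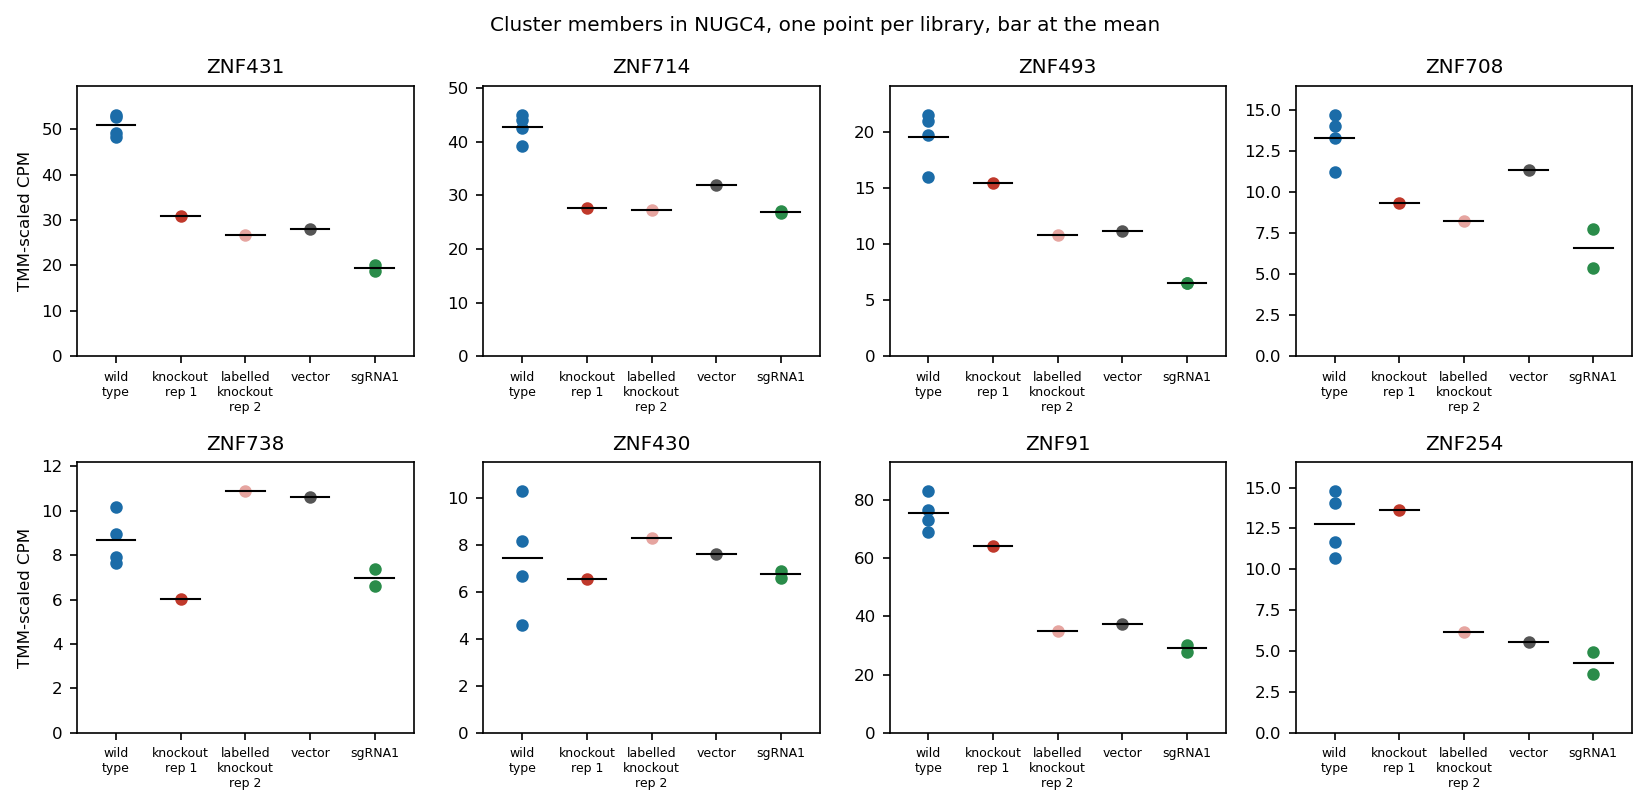
TMM-scaled CPM of 8 members in NUGC4, 1 point per library with a bar at the group mean, in wild type, knockout replicate 1, the library labelled knockout replicate 2, the vector control and sgRNA1; each panel starts at 0 and has its own scale. For ZNF431 and ZNF714 every other library lies below the 4 wild-type libraries, and for ZNF91 and ZNF254 the vector, the sgRNA1 and the library labelled knockout replicate 2 lie far below wild type while knockout replicate 1 does not.

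The 2 kinds of NUGC4 control, wild type and vector, also differed for these genes. In the vector library 5 of the 13 members were called lower than in wild type and none higher, against 20.7% and 23.5% of all genes (edgeR alone; the same 5 and 0 at an unadjusted p under 0.05). ZNF91 was at 37.3 TMM-scaled CPM with vector, below the 68.9 to 83.0 of wild type, a log2 fold change of -1.02 ± 0.14 (adjusted p = 1.1e-05). ZNF254 was at 5.54 with vector against 10.7 to 14.8 in wild type, a log2 fold change of -1.22 ± 0.25 (adjusted p = 7.2e-04). ZNF431, ZNF493 and ZNF714 were the other 3 called. Among the other ZNF genes of chromosome 19, 52 of 145 were lower and 9 higher in the vector library. ZNF genes of other chromosomes leaned the same way, with 60 of 203 lower and 16 higher. This comparison shares the wild-type libraries with that of the knockout. The construct, the ribosomal RNA share and whatever else set these libraries apart cannot be told apart.

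The summed level of all 35 members, with TMM scaling within each line, was 282, 264, 253 and 282 TMM-scaled CPM in wild type, 215 in knockout replicate 1, 178 in the vector library and 144 and 135 in the sgRNA1 libraries, with 165 in the library labelled knockout replicate 2. ZNF91 alone made 27.2% to 29.4% of this sum in wild type and 20.7% to 21.0% in the vector and sgRNA1 libraries. In HepG2 the sum was 95.7 and 101 in the vector libraries and 125 and 118 with CTNNB1, and ZNF91 made 15.4% to 19.4% of it.

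Overexpressed CTNNB1 went with higher levels of part of the cluster in HepG2. Of 24 members tested, 4 were called higher and none lower, against 12.8% and 11.4% of the 15703 genes tested in HepG2. The 16.7% of members called higher thus lies close to the background. The median log2 fold change was 0.36 over the members and 0.00 over all genes, and 19 of 24 were positive. The other ZNF genes of chromosome 19 leaned the same way, with 120 of 175 positive and a median of 0.18. Of these, 19 were called higher (10.9%) and 5 lower (2.86%). Among ZNF genes of other chromosomes 118 of 195 were positive, with a median of 0.05. At an unadjusted p under 0.05, 8 members were higher and none lower, beside 2904 genes higher and 2682 lower of the 15703. DESeq2 and limma-voom called none lower. The DESeq2 Wald test called only ZNF91 higher, with adjusted p of 0.13 for ZNF431, 0.123 for ZNF101 and 0.183 for ZNF253. Both CTNNB1 libraries lay above both vector libraries for 16 members and below them for none, against 30.5% and 30.4% of all genes. CTNNB1 itself rose from 385 and 379 CPM to 1538 and 1551.

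ZNF91, the repressor of SVA elements, stood at 14.8 and 16.8 TMM-scaled CPM in the vector libraries and 23.8 and 22.9 with CTNNB1, a log2 fold change of 0.55 ± 0.10 (SE, adjusted p = 1.9e-04). ZNF431 rose from 3.90 and 4.27 to 6.22 and 5.96 TMM-scaled CPM, 0.56 ± 0.16 on the log2 scale (adjusted p = 0.0119). By edgeR, ZNF431 was called in each of the 3 main comparisons, lower in the knockout and under CRISPRi and higher with CTNNB1. Its CRISPRi call was lost without wild-type replicate 2 and without either sgRNA1 library. Its CTNNB1 call was lost with DESeq2 and without HepG2 vector replicate 1. ZNF101 rose from 13.4 and 14.7 to 18.9 and 16.9 TMM-scaled CPM (0.34 ± 0.11, adjusted p = 0.0221). ZNF253, which NUGC4 did not express, rose from 2.29 and 3.54 to 4.78 and 4.37 TMM-scaled CPM (0.59 ± 0.20, adjusted p = 0.0297). Its log2 fold change was 0.36 without vector replicate 1 (adjusted p = 0.319) and 0.985 without vector replicate 2. The groups did not overlap for any of these 4 genes. ZNF91 was the only one called without vector replicate 1, and ZNF91 and ZNF431 were called without CTNNB1 replicate 1.

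The other 2 of the 4 most abundant members of HepG2 did not pass the test. ZNF429 stood at 9.94 and 10.6 TMM-scaled CPM with vector and 11.1 and 8.90 with CTNNB1, a log2 fold change of -0.05 ± 0.13 that was not called. ZNF43 stood at 8.95 and 7.86 with vector and 8.81 and 7.89 with CTNNB1, a log2 fold change of 0.00 ± 0.14 (adjusted p = 0.996). The groups overlapped for both. ZNF738 had the highest fitted value, 1.04 ± 0.40 (adjusted p = 0.0617), at 0.612 and 0.469 TMM-scaled CPM with vector and 0.896 and 1.26 with CTNNB1. All 6 genes of the run from ZNF430 to ZNF493 had positive values, between 0.22 and 1.04 with a median of 0.46. So had 7 of the 8 tested genes of the run from ZNF253 to ZNF85, between -0.17 and 0.59 with a median of 0.45. The 3 tested genes of the run from ZNF43 to ZNF730 lay between 0.00 and 0.12.

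**Figure D4:**
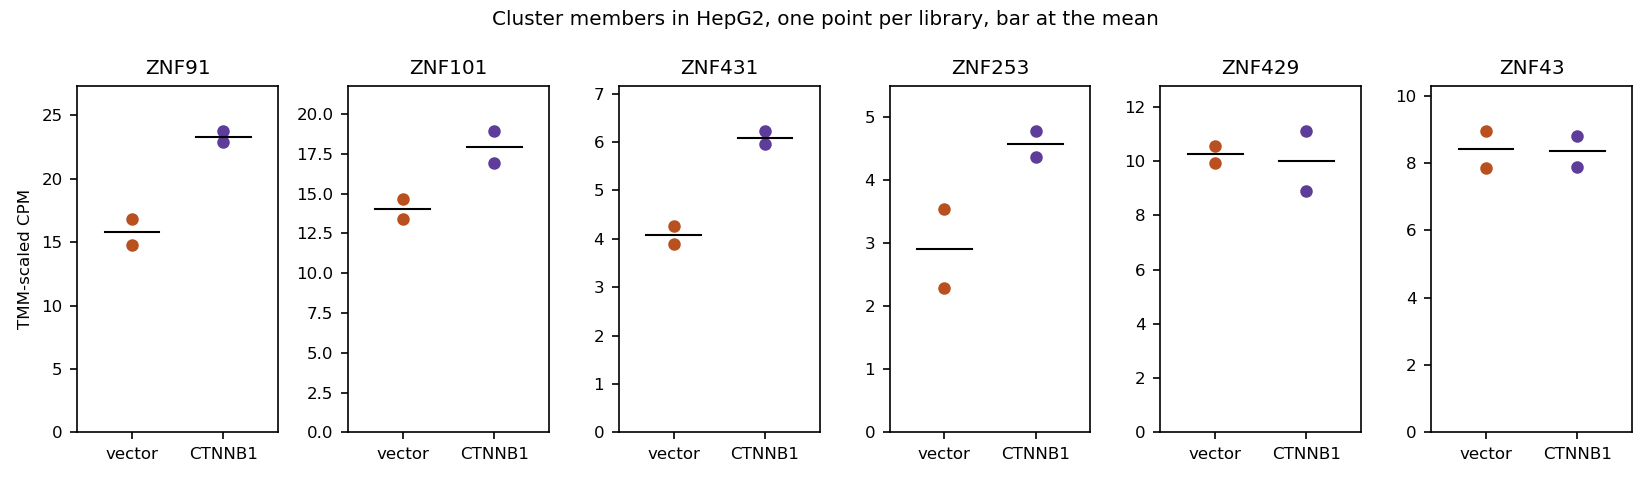
TMM-scaled CPM of 6 members in HepG2, 1 point per library with a bar at the mean of 2, for the vector and the CTNNB1 libraries; each panel starts at 0 and has its own scale. ZNF91, ZNF101, ZNF431 and ZNF253 lie higher in both CTNNB1 libraries, whereas the groups overlap for ZNF429 and ZNF43.

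**Figure D5:**
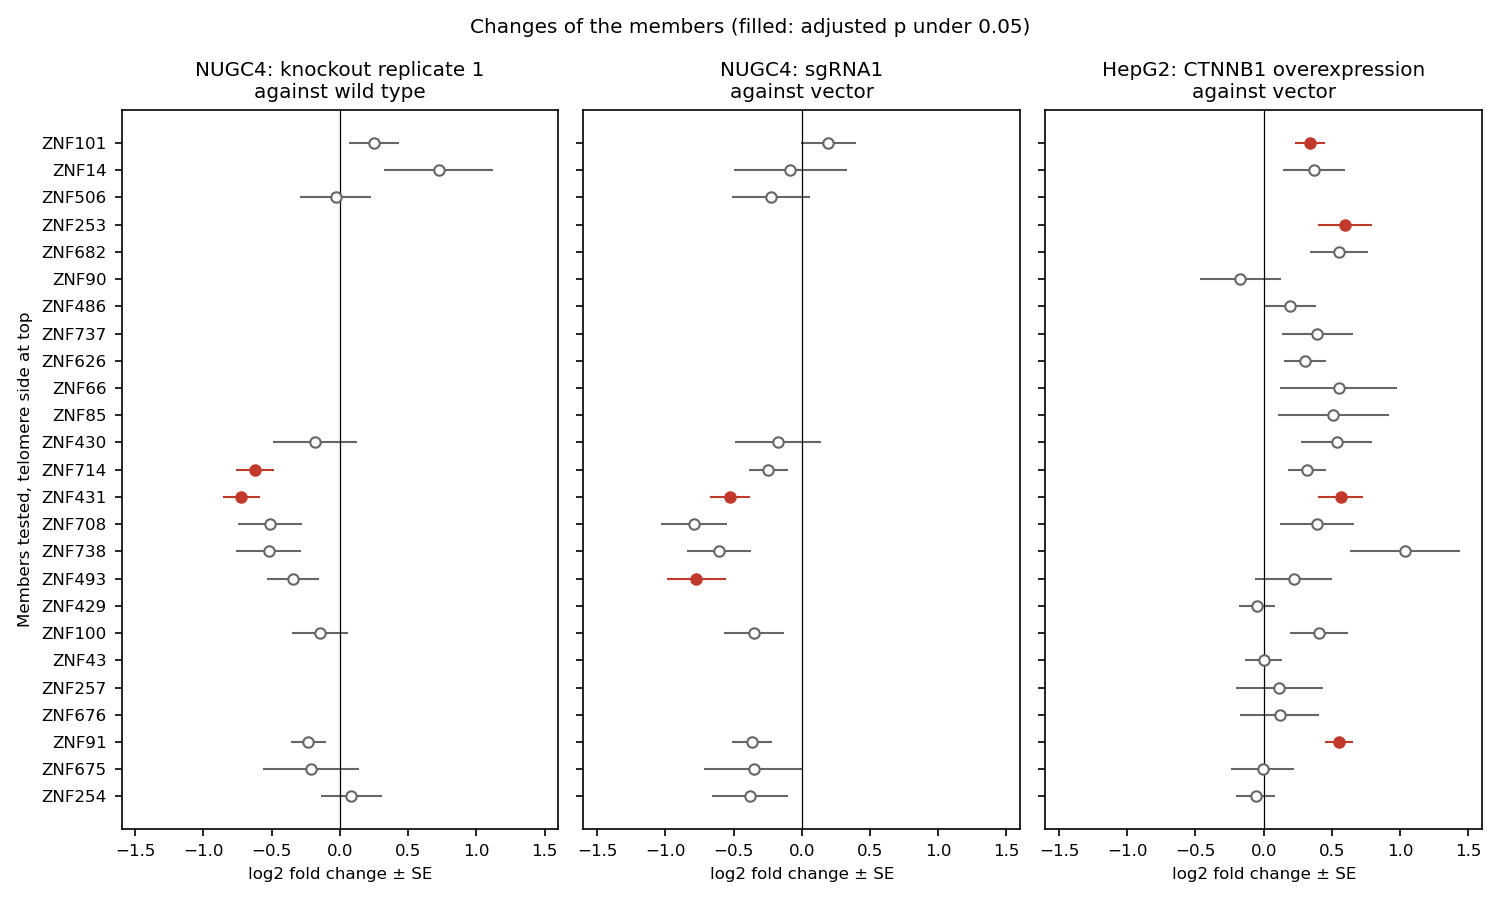
Log2 fold change with its standard error of every member tested, in chromosomal order, for knockout replicate 1 against wild type, sgRNA1 against vector and CTNNB1 against vector; filled points have an adjusted p under 0.05. The run from ZNF430 to ZNF493 lies left of 0 in both NUGC4 panels and right of 0 in HepG2, and genes without a point were not tested in that line.

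RNA of TRIM28, SETDB1 and other genes of heterochromatin and repression was followed as a list of 25 genes, all of them tested in both lines. The list also holds a zinc finger gene, ZNF274, and not every gene on it is tied to KRAB proteins alone. In the knockout 5 of 25 were called lower (20%, beside 18.7% of all genes) and 3 higher (12%, beside 19.5%), with a median log2 fold change of -0.03. The histone methyltransferase genes EHMT1 (-0.62 ± 0.11, adjusted p = 1.7e-04) and SETDB1 (-0.35 ± 0.13, adjusted p = 0.0385) fell, and so did CHD3, UHRF1 and MPHOSPH8. MPHOSPH8 encodes a subunit of the HUSH silencing complex. The histone deacetylase genes HDAC1 (0.56 ± 0.10, adjusted p = 2.7e-04) and HDAC2 (0.38 ± 0.13, adjusted p = 0.0259) rose, with SUMO2. Under CRISPRi 1 of 25 was called (4% lower, beside 4.11% of all genes), CHD3, a nucleosome remodeller of the NuRD complex, with a log2 fold change of -0.45 ± 0.12 (adjusted p = 0.0214). With CTNNB1, 7 of 25 were higher (28%, beside 12.8% of all genes) and none lower (beside 11.4%): UHRF1 (0.62 ± 0.06, adjusted p = 4.1e-08), CBX5, TASOR, ATF7IP, CHD3, ATRX and DNMT1. Calls for this list were made in edgeR alone. TRIM28 was not called in any of these 3 comparisons. Its levels ranged from 304 to 387 TMM-scaled CPM over the NUGC4 libraries and from 323 to 364 over the HepG2 libraries, each line scaled on its own. Against wild type, the vector library also had EHMT1 lower (log2 fold change -0.98), as in the knockout. It had HDAC1 (0.64), HDAC2 (0.35) and SUMO2 (1.23) higher, again as in the knockout. CHD3 (0.76), UHRF1 (0.76) and MPHOSPH8 (0.32) were higher there, unlike in the knockout, and SETDB1 stood at -0.002. The part of this control difference in the knockout values was not tested.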

How the data were processed

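RNA-seq of 9 NUGC4 and 4 HepG2 libraries was analysed. The table deposited by the authors holds raw read counts, whole numbers for 59250 gene symbols in 14 columns. Columns were matched to samples by name, and 1 column that matched no sample was not used. Per the labels' protocols, poly(A) RNA was captured. The submitters' processing notes name STAR 2.7.10a and the build hg38. Which tool, annotation and strand setting gave the counts, and how it treated shared reads, is not given in the sources used here.

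Counts were tested in R 4.3.3 with edgeR 4.0.16 (TMM, filterByExpr, quasi-likelihood test, Benjamini-Hochberg adjustment over all genes, threshold 0.05). The NUGC4 fit held 8 libraries, without the library labelled knockout replicate 2 (4 residual degrees of freedom), and the HepG2 fit 4 libraries (2 residual degrees of freedom). The script was tested on simulated data. DESeq2 1.42.0, limma-voom (limma 3.58.1), other filters and scalings, a replicate block and leaving out each library were tried as alternatives. Levels of on or off genes are CPM of the library total. Positions and promoter windows came from RefSeq (GRCh38.p14), which held 57729 of the symbols, and exon lengths from GENCODE v29. Intervals and bounds from counts cover counting error only.

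Members named with values in every library are those called in a comparison, up to 10 by adjusted p, and the 4 most abundant of each line. Further members named for their position or for missing the threshold, such as ZNF708, ZNF738, ZNF14 and ZNF254, were chosen after their values were seen. The members and the lists were chosen with earlier results of these data known.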

Additional observations from a re-analysis of the deposited data

How the results depend on the processing

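The directions and calls of the members were recomputed under each alternative. For the knockout, the number of members called lower was 2 in the main analysis, 6 with the library labelled replicate 2 in place of replicate 1, 4 with the replicate block and 0 when a log2 change of at least 1 was also asked for. It was 2 when any other 1 library was left out, a range of 2 to 6 with the replacement just named. ZNF101 reversed to -0.30 with the library labelled replicate 2. For CRISPRi the number called lower was 2, but 1 with the DESeq2 Wald test (ZNF431), 5 with the replicate block, 5 with only the compared groups in the fit, 0 to 3 when each library was left out and 0 with the log2 limit of 1. For CTNNB1 the number called higher was 4, but 1 with the DESeq2 Wald test (ZNF91), 2 with all libraries of both lines in 1 fit, 1 to 4 when each library was left out and 0 with the log2 limit of 1; the replicate block gave 4. ZNF43, near 0 in HepG2, changed sign to 0.007 without the filter and 0.0224 with all libraries in 1 fit. When each HepG2 library was left out it ranged from -0.1074 to 0.0787 (0.0777 without vector replicate 1), and ZNF429 from -0.2091 to 0.1053. The cause of these moves was not tested, except that the limit of 1 leaves fewer calls by construction. Shares of all genes called moved as well. For the knockout, the share called lower rose with the replacement library and with the replicate block. Under CRISPRi it rose with the block and with only the compared groups, and fell with DESeq2. With CTNNB1 the share called higher fell from 12.8% to 7.21% with DESeq2, 4.25% with all libraries in 1 fit and 9.76% with the block. The member counts thus do not track the members alone. Replicate numbers are not shown to pair libraries: same-numbered HepG2 libraries correlated at -0.0816 across 15703 genes. The members on in HepG2 only numbered 12 at 0.5 CPM and 7 at 2 CPM, thresholds chosen after seeing the data, against 10 at 1 CPM; NUGC4 had 13 on at each threshold. At these depths low members such as ZNF738 and ZNF14 in HepG2 rest on few counts, and their changes have wide errors.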

Other observations

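Of 149 annotated genes that lie between ZNF101 and ZNF254 and are not in the list, 11 reached 1 CPM in any library, 3 of them in HepG2 only, 6 in NUGC4 only and 2 in both. The transcribed pseudogene IPO5P1, next to ZNF91, which was on in both lines, had 1711 counts over the 4 HepG2 libraries (up to 23.9 CPM) and no count in the 9 NUGC4 libraries. ZNF724, a protein-coding zinc finger gene outside the list, reached 2.22 CPM in HepG2 and at most 0.0753 CPM in NUGC4. LOC105372319, which lies within the first run of silent genes, had 213 counts in HepG2 and none in NUGC4. The pseudogene RPS16P10, within the same run, was on in both lines, with 102 counts in NUGC4 and 200 in HepG2. Pseudogenes of the vomeronasal receptor family showed the opposite order: VN1R83P, in the expressed run, had 204 counts in NUGC4 and 12 in HepG2, and VN1R81P, within ZNF714, had 149 and 19. Reads of a pseudogene that overlaps a member cannot be assigned to it without the strand of the counting.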
